A study of Mus musculus with 9 samples.

Results

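Binding of Stat5b in mouse CD4+ T cells after 2 rounds of Th2 differentiation was examined against the IgG control of the same stage, over the places that the authors listed as Stat5b peaks. The members are the regions of the deposited Stat5b 2-round peak list in the mm8 mouse build, without the mitochondrial chromosome and with overlapping peaks joined. The list held 33692 peaks, none of them mitochondrial, and joining left 31744 regions, here called peaks. Of these, 1818 were joined from 3766 deposited peaks. The 6 peak lists of the series hold 80628 peaks in all.

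The study immunoprecipitated chromatin with an antibody to Stat5b, an antibody to Stat5a or a control IgG at 3 stages of Th2 differentiation (8 h, 13 h and 2 rounds), and sequenced 1 library for each antibody and stage, 9 in all. The cells are CD4+ T cells of mouse in every library, and the labels give no strain, age, genotype or cytokine, nor whether animals were pooled. The Stat5b 2-round library held 7656900 mapped reads and the IgG 2-round library 5787254. With 1 library a group there is no replicate error, so every comparison below compares these libraries, and no p-value is given.

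Stat5b is a transcription factor of the JAK-STAT pathway. Receptors for IL-2, IL-7 and related cytokines activate Janus kinases, which phosphorylate Stat5 proteins on a tyrosine, and the phosphorylated proteins pair up, enter the nucleus and bind DNA. Stat5a and Stat5b are encoded by neighbouring genes and are closely alike in sequence. In CD4+ T cells, Stat5 is known for its part in IL-2 responses and in Th2 differentiation, the path to helper cells that produce IL-4. In ChIP-seq, DNA bound by the protein is recovered with the antibody and the ends of the recovered fragments are read, so that bound places gather reads. An IgG antibody without a chosen target measures what is recovered regardless of binding. In a pool of cells, a site bound in more cells and a site bound more strongly in each cell cannot be told apart. The sequencing gives genomic DNA only, so the cell type cannot be checked against marker genes in these data. Regions are named by their mm8 position, counted from 1, because gene positions of that build were not used here.

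After 2 rounds, 18.7% of Stat5b reads had their 5′ end in the peaks, against 2.30% of IgG reads, with Wilson 95% intervals from 18.69% to 18.75% in Stat5b and from 2.29% to 2.31% in IgG. The ratio of these shares was 8.14, with an exact 95% interval from 8.09 to 8.18. Levels are given as RPM, the reads per 1000000 mapped reads of the same library, and the peaks held 9.10 RPM per kb in Stat5b and 1.12 in IgG. A single peak had a median of 30 reads in Stat5b and 3 in IgG, or 3.92 and 0.518 RPM. Stat5b was thus above IgG by a wide margin in the list as a whole, but the list was made from the Stat5b library, so the excess is a description and not a test of binding. Intervals and floors here stand for counting error alone, as these reads carry no molecular identifiers and need not be separate molecules.

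Reads that start at the same base on the same strand can be copies of 1 molecule, so each peak was also counted with every start and strand taken once, called distinct starts. Distinct starts made up 64.4% of the Stat5b library and 70.6% of the IgG library. Inside the peaks they made up 60.9% of Stat5b reads and 69.6% of IgG reads, and outside them 65.2% and 70.6%. On distinct starts the peaks held 17.7% of Stat5b and 2.27% of IgG, a ratio of 7.80. Stat5b repeated its starts more often inside its peaks than outside, while IgG did so to nearly the same degree in both places. In the strongest 1% of peaks only 49.8% of Stat5b reads had a distinct start, and there the pooled ratio to IgG was 26.4 with all reads and 21.2 with distinct starts.

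A peak was called higher than IgG when the exact 95% interval of the ratio of RPM lay wholly above 2. By this rule 20365 of 31744 peaks were higher in Stat5b, 64.2% of all peaks, and 1 peak (0.00315%) was lower, with an interval wholly under 0.5. The same rule over the 3518383 windows of 500 bp outside the peaks that held a read called 2811 windows higher, 0.0799%, and 6338 lower, 0.18%. On distinct starts 14134 peaks (44.5%) and 93 windows (0.00264%) were called. Peaks were called far more often than windows by either count, which the making of the list from this library favours. Read number favours it too. Windows averaged 0.452 RPM per kb in Stat5b, beside 9.10 in the peaks, and most windows held too few reads to pass whatever their ratio. The interval lay wholly above 1 in 30236 peaks (95.2%), beside 1.15% of windows, and held 1 in 1502 peaks, and only 10 peaks had fewer RPM in Stat5b than in IgG.

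How many peaks passed depended on how many reads they held. The reads per peak ranged from 6 to 2467 in Stat5b, with 8230 peaks (25.9%) under 20 reads, and the smallest Stat5b count in a called peak was 12. A peak with fewer than 12 Stat5b reads could not pass at this depth even with no IgG read. The peaks with an IgG read numbered 26841 and had a median ratio of 7.18. The other 4903 peaks (15.4%) had no IgG read, which allows up to 0.518 RPM in that library at a floor of 3 counts. Their median was 17 Stat5b reads, and 4219 of them were called. The most Stat5b reads in such a peak were 280, on chromosome 18, where the exact interval of the ratio began at 57.0 with all reads and at 32.4 on distinct starts.

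The peaks were ranked by Stat5b RPM above IgG and divided into 10 classes of 3174 or 3175 peaks, from class 1, the strongest, to class 10, the weakest. Class 1 had a median of 15.8 RPM in Stat5b and 1.21 in IgG, and its median width was 1026 bp. In class 10 the medians were 1.57 RPM in Stat5b and 0.346 in IgG, at a width of 363 bp. The pooled ratio of Stat5b to IgG was 14.2 in class 1, 8.36 in class 2, between 5.93 and 7.38 in classes 3 to 9, and 3.12 in class 10. On distinct starts it was 12.6 in class 1 and 4.79 in class 10. Since the ranking uses both libraries, the order of these levels follows from it. In the middle of the ranking both libraries declined together, the level per kb from class 3 to class 9 running from 8.39 down to 5.04 RPM in Stat5b and from 1.14 down to 0.850 RPM in IgG.

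In class 10 the IgG level per kb was 1.48 RPM, above that of the other 9 classes. It held the 10 peaks below IgG, and 26.0% of its IgG reads lay in peaks with at least 50 IgG reads, of which the whole list has 26. No peak of class 10 was called higher than IgG, while 99.7% of class 1 were. The ranking and the call use the same reads, so these shares are a description. The largest excess in class 10 was 1.53 RPM. The smallest callable count, 12 Stat5b reads with no IgG read, is 1.57 RPM, so no peak of class 10 could be called.

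**Figure D1:**
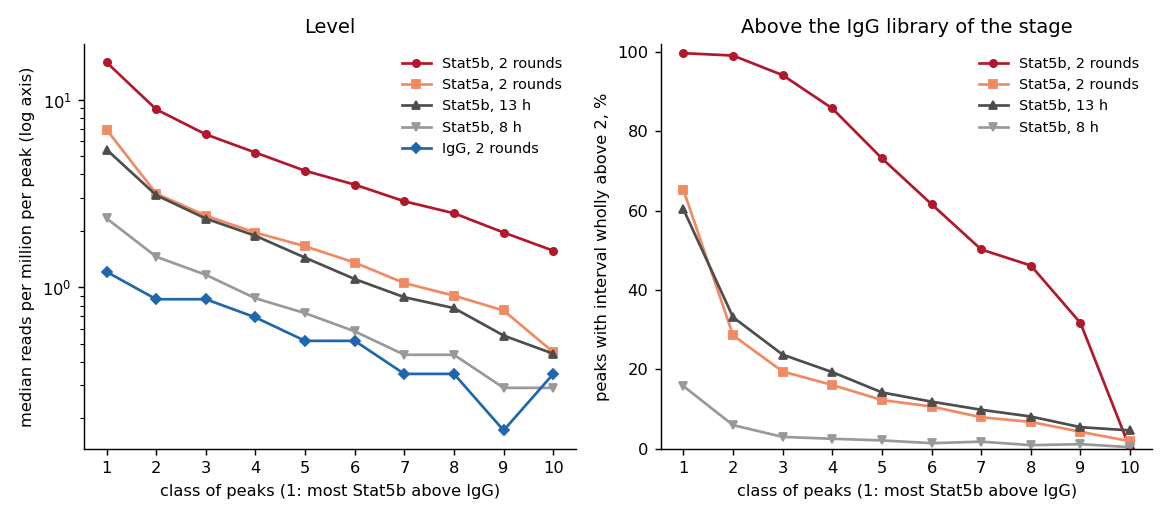
Median RPM per peak (left, log axis) and the percent of peaks whose interval of the ratio to the IgG of the same stage lay wholly above 2 (right) in 10 classes of the Stat5b 2-round peaks, from the strongest to the weakest. Stat5b after 2 rounds runs from 15.8 down to 1.57 RPM. IgG runs from 1.21 in class 1 down to 0.173 in class 9 and is 0.346 RPM in class 10. The called share in Stat5a after 2 rounds is 65.2% in class 1 and 28.6% in class 2 with all reads, as drawn.

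The signal was spread over many peaks, with a strong upper end. The strongest 1%, 317 peaks, held 9.94% of all Stat5b RPM above IgG, the strongest 10% held 37.2%, and 5740 peaks held 50%. Each of the 317 strongest was called higher than IgG, and 271 of them (85.5%) lay under 10 kb from another peak, against 61.5% of all peaks.

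The other Stat5 libraries took no part in the list as far as the labels say, so their reads in these peaks are measures of their own. Stat5a after 2 rounds had 7.83% of its reads there, at 3.81 RPM per kb and a median of 1.50 RPM a peak. Stat5b had 3.34% of its reads in the same peaks at 8 h and 6.85% at 13 h, at 1.62 and 3.33 RPM per kb. The IgG libraries of 8 h and 13 h had 1.93% and 1.97%. Each Stat5 library thus gathered more reads in these regions than the IgG of its stage. The larger share of Stat5b after 2 rounds, 18.7%, is favoured by the list, which was made from that library.

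Peak by peak, fewer passed. In Stat5a after 2 rounds 5496 peaks (17.3%) were higher than IgG, where 0.167% of windows outside were, and on distinct starts 2750 (8.66%), where 0.00137% of windows were. In Stat5b at 8 h 1113 peaks (3.51%) passed against the IgG of 8 h and at 13 h 6051 (19.1%) against the IgG of 13 h, beside 0.0772% and 0.211% of windows. On distinct starts 536 peaks (1.69%) passed at 8 h and 3389 (10.7%) at 13 h, beside 0.00111% and 0.0103% of windows. The few reads in a window limit these window shares as well. The comparisons of Stat5a and Stat5b after 2 rounds share the IgG library, so their values stand side by side and are not set against each other.

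Levels per peak in the other Stat5 libraries were higher in the stronger classes, whose peaks were also wider. The Stat5a call and the ranking share the IgG library, so the Stat5a shares by class are a description, while the calls of Stat5b at 8 h and 13 h use the IgG of their own stage. Stat5a after 2 rounds had a median of 6.92 RPM and was higher than IgG in 65.2% of peaks of class 1, and 0.451 RPM and 1.89% in class 10. For Stat5b at 8 h these values were 2.33 RPM and 15.8% in class 1 and 0.291 RPM and 0.409% in class 10, and for Stat5b at 13 h 5.42 RPM and 60.3% in class 1 and 0.443 RPM and 4.63% in class 10. The widest step lay between classes 1 and 2, the share in class 2 being 28.6% in Stat5a after 2 rounds and 33.1% in Stat5b at 13 h. Distinct starts gave fewer calls, in Stat5a after 2 rounds 52.0% in class 1, 14.9% in class 2 and 0.189% in class 10, and in Stat5b at 13 h 49.5%, 19.7% and 0.945%. In Stat5b at 8 h they gave 10.9%, 2.36% and 0%. Median widths of 1026 bp in class 1 and 363 bp in class 10 enter these levels and calls, and per kb the classes differed less. Stat5a after 2 rounds had 7.96 RPM per kb in class 1 and 2.17 in class 10. Stat5b had 2.66 and 1.28 at 8 h, and 6.37 and 1.97 at 13 h. Over the 31744 peaks, Spearman's rho of RPM per kb in Stat5b after 2 rounds was 0.522 with Stat5a after 2 rounds, 0.286 with Stat5b at 8 h, 0.420 with Stat5b at 13 h and 0.287 with IgG after 2 rounds. The value with Stat5b at 8 h was thus no higher than that with IgG. These are descriptions over regions that share mappability and position, and the peak width enters each value.

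The lists overlapped to unequal shares. Of the Stat5b 2-round peaks, 7858 (24.8%) overlapped the Stat5a 2-round list, and 8221 of the 9556 Stat5a peaks (86.0%) overlapped a Stat5b 2-round peak. With the Stat5b lists of 8 h and 13 h the overlap took in 2207 (6.95%) and 9296 (29.3%) of the 2-round peaks, and 2694 (72.2%) and 9798 (76.7%) of the earlier ones. Of the Stat5a lists of 8 h and 13 h, 4122 of 5491 peaks (75.1%) and 7012 of 14082 peaks (49.8%) overlapped a Stat5b 2-round peak. The Stat5b 2-round list, the longest of the 6, thus took in most peaks of 4 other lists and about as many as not of the Stat5a 13 h list.

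More than 50% of the list stood alone. In no other list were 16634 peaks (52.4%), and they had a median of 2.87 RPM in Stat5b and 0.346 in IgG, with a pooled ratio of 6.57. Of them 52.2% were called higher than IgG, and 27.6% on distinct starts. In these same peaks the pooled ratio to IgG was 2.13 for Stat5a after 2 rounds and 2.06 for Stat5b at 13 h, although neither list names them. All reads called 3.47% of them in each of these libraries, beside 17.3% and 19.1% of all peaks. Distinct starts called only 0.138% in Stat5a after 2 rounds and 0.337% in Stat5b at 13 h, beside 8.66% and 10.7% of all peaks. Picking peaks that neither list names favours such low shares. The 1148 peaks (3.62%) found in all 5 other lists had 17.8 RPM in Stat5b and 1.04 in IgG, a pooled ratio of 13.5, and a width of 942 bp.

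Against their own surroundings the peaks stood out in every library, IgG included. Flanks were taken from 2 to 5 kb on each side of the peaks, without other peaks and with each base counted once. Stat5b had 9.10 RPM per kb in the peaks and 0.553 in the flanks, a fold of 16.5 with a 95% interval from 16.4 to 16.5, and IgG had 1.12 and 0.509, a fold of 2.20 with an interval from 2.19 to 2.21. The fold was 7.31 for Stat5a after 2 rounds, 3.71 for Stat5b at 8 h and 6.48 for Stat5b at 13 h. In IgG of 8 h it was 2.19 and in IgG of 13 h 2.11. The flanks of Stat5b and IgG differed little, so most of the ratio between the libraries came from the peaks themselves. The IgG excess was present at all 3 stages at nearly the same size, and its source was not tested.

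A bound protein sits between the ends of its fragments, so reads on the plus strand gather before the site and reads on the minus strand after it. Around the centres of 31740 peaks (4 were left out in which 1 start held most reads of a library), Stat5b reads on the plus strand were densest at −70 bp, with 7.19 RPM per kb, and those on the minus strand at +50 bp, with 7.27 RPM per kb. IgG reached 0.741 RPM per kb on the plus strand at −10 bp and 0.747 on the minus strand at +50 bp. Both Stat5b curves were 300 bp wide at 50% of their height.

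The distance from plus to minus strand starts, over all pairs within 1 kb of a centre, was most frequent at 116 bp in Stat5b. At that distance pairs of distinct starts were 2.996 times as frequent as at 400 to 500 bp, and pairs of all reads 3.99 times. IgG, pooled over the peaks, had another shape. Its distinct starts had a narrow maximum at the length of a read, 2.86 times the far level at 24 bp, where a plus and a minus read cover the same bases, and a lower broad one of 1.80 at 103 bp. The narrow maximum was uneven over the peaks. At 24 bp the IgG pairs stood at 5.72 times the far level in class 1 and 10.3 in class 10, but at 1.34 in class 2, 0.839 in class 6 and 1.14 in the peaks of no other list. Stat5a after 2 rounds and Stat5b at 13 h had their maxima at 99 and 98 bp on distinct starts, with heights of 3.23 and 2.69.

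**Figure D2:**
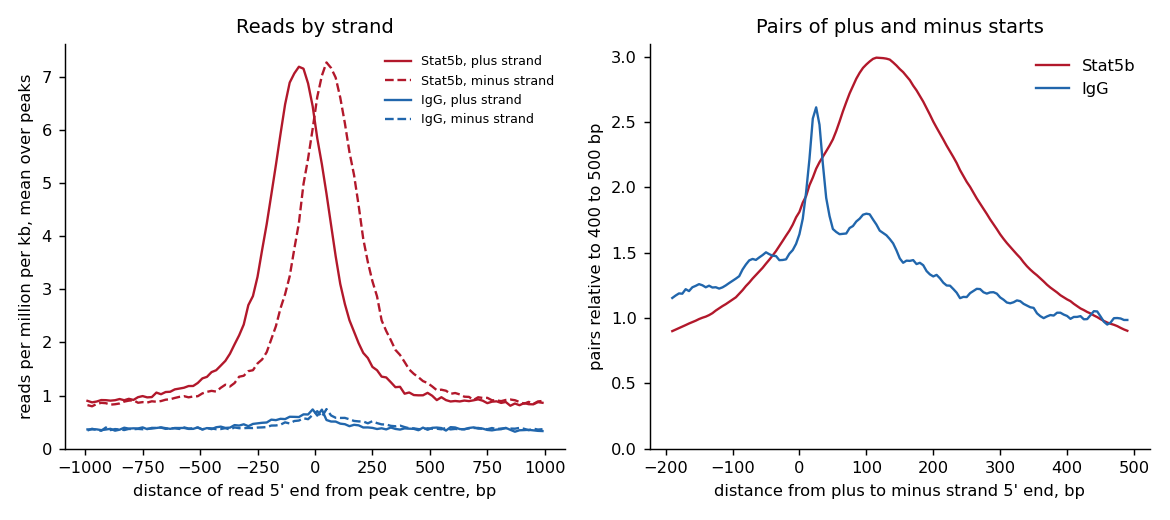
Left, mean RPM per kb by distance of the read 5′ end from the peak centre, for the plus (solid) and minus (dashed) strand of Stat5b and IgG after 2 rounds. Right, pairs of a plus and a minus strand distinct start by the distance between them, relative to 400 to 500 bp. The Stat5b curve has 1 broad maximum at 116 bp, and the IgG curve, pooled over the peaks, a narrow one near 24 bp and a lower one at 103 bp.

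The offset was much the same in windows around strong and weak peaks. These windows also take in neighbouring peaks of any class, which 30.2% of class 1 and 23.7% of class 10 had under 1 kb away. On distinct starts the offset lay between 98 and 127 bp over the 10 classes, at 118 bp in class 1 and 113 bp in class 10. The height over the far level was 3.61 in class 1 and between 2.23 and 2.83 in the other 9. It was 119 bp in the peaks of no other list and 114 bp in those of all 5 other lists. In the peaks of no other list, Stat5a after 2 rounds and Stat5b at 13 h had offsets of 110 and 115 bp, with heights of 2.04 and 1.74, and IgG 95 bp with a height of 1.36. The windows reach 1 kb from each centre, and 23.8% of these peaks had another peak under 1 kb away. Reads of neighbouring peaks that the other lists name can thus enter these offsets and heights, and were not separated.

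Few peaks rested on 1 strand or 1 start. The median share of plus strand reads was 50%, and among 23514 peaks with at least 20 reads, 406 had over 80% of them on 1 strand and 68 over 90%. Over 50% of at least 20 reads began at 1 base of 1 strand in 2 peaks in Stat5b and in 3 peaks in IgG. The clearest was on chromosome 7 from 125339806 to 125340091, where 401 of 426 Stat5b reads had the same start on the minus strand. It ranked 188 with all reads and 24875 on distinct starts.

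Peak width ranged from 142 to 3826 bp with a median of 578 bp, and quartiles of 437 and 773 bp. The Stat5a 2-round list had a median of 347 bp and the Stat5b 13 h list 373 bp. Spearman's rho between width and Stat5b reads was 0.848 over the 31744 peaks, as a wider region counts more reads. The centred pileup did not widen in step. With reads moved 58 bp downstream, to the middle of the offset, it was 360 bp wide at 50% of its height in class 1 and 240 bp in class 10, with tops of 39.7 and 6.90 RPM per kb, beside median widths of 1026 and 363 bp. In the 20 strongest peaks, whose median width was 2124 bp, the densest 500 bp held a median of 76.8% of the Stat5b reads, from 42.6% to 93.6%.

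The 20 peaks with the most Stat5b RPM above IgG had between 90.5 and 322 RPM in Stat5b, with a median of 115, and between 1.21 and 46.8 in IgG, with a median of 2.59. Their ratios ran from 3.41 to 91.5 with a median of 45.3, and on distinct starts from 2.84 to 61.6 with a median of 31.0. All 20 were called higher on distinct starts, 18 were also among the 20 strongest on distinct starts, and all 20 lay in each of the 5 other lists. Reads were balanced between strands, with 43.4% to 57.0% on the plus strand. These peaks lay on 8 chromosomes, 4 each on chromosomes 11 and 16, 3 each on chromosomes 2 and 9, 2 each on chromosomes 10 and 17, and 1 each on chromosomes 5 and 6.

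The strongest peak lay on chromosome 9 from 107153387 to 107156833 and had 2467 Stat5b reads against 21 IgG reads. That is 322 against 3.63 RPM, a ratio of 88.8 with an interval from 58.0 to 144, and 51.5 on distinct starts. Stat5b had 41.1 RPM there at 8 h and 119 at 13 h, against 6.09 and 8.37 in IgG of these stages, and Stat5a had 139 RPM after 2 rounds. Stat5b was above IgG there at every stage and highest after 2 rounds.

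The second peak, on chromosome 16 from 23902784 to 23904880, had 205 RPM in Stat5b and 2.25 in IgG, a ratio of 91.5 with an interval from 53.3 to 172. Stat5b held 30.4 RPM at 8 h and 83.6 at 13 h, and Stat5a 79.2 after 2 rounds. The next, on chromosome 10 from 94844625 to 94848058, had 164 RPM in Stat5b and 4.15 in IgG, with 7.72 at 8 h and 29.5 at 13 h in Stat5b. The fourth, on chromosome 17 from 34812280 to 34813785, had 156 RPM in Stat5b and 2.42 in IgG, with 18.1 at 8 h and 53.9 at 13 h. In all 4 the order over the stages was the same, with the level lowest at 8 h, and none had more than 4.15 RPM in IgG after 2 rounds.

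The fifth peak lay on chromosome 16 from 10552338 to 10554126 with 148 RPM in Stat5b and 3.80 in IgG, and the seventh on the same chromosome from 10685041 to 10686553 with 124 RPM in Stat5b and 1.38 in IgG. The eighth lay on chromosome 11 from 117783894 to 117786459 with 126 RPM in Stat5b and 4.67 in IgG, and the ninth on chromosome 2 from 117033401 to 117035229 with 121 RPM in Stat5b and 2.59 in IgG. Each had a ratio of at least 27.0. Among the remaining ones, the peak ranked 11, on chromosome 11 from 69736702 to 69738880, had 107 RPM in Stat5b and 2.42 in IgG. The peak ranked 12, on chromosome 17 from 29226386 to 29228355, had 104 RPM in Stat5b and 1.90 in IgG. The narrowest of the 20, ranked 15 on chromosome 6 from 124715655 to 124716745, was 1091 bp wide and had 100.2 RPM in Stat5b, against 1.38 in IgG, with 93.6% of its Stat5b reads in 500 bp.

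Of the 20, the peak ranked 10 differed in its IgG. On chromosome 11 from 3091441 to 3094534, Stat5b had 160 RPM and IgG 46.8, a ratio of 3.41 with an interval from 2.99 to 3.91. IgG was also high there at the other stages, with 47.1 RPM at 8 h and 52.8 at 13 h, and Stat5a after 2 rounds, at 69.5 RPM, had a ratio of 1.48 with an interval from 1.28 to 1.73. It was the only one of the 20 not called higher in Stat5a and the only one whose Stat5b interval did not lie above 10.

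The peak ranked 14, on chromosome 5 from 118755437 to 118756771, differed in its earlier levels. Stat5b had 1.89 RPM there at 8 h, 9.63 at 13 h and 103 after 2 rounds, against 1.21 in IgG after 2 rounds, and Stat5a had 36.1 RPM after 2 rounds. Its levels in Stat5b at 8 h and 13 h were the lowest of the 20, whose medians at these stages were 13.5 and 36.0 RPM. The peak ranked 17, on chromosome 11 from 97474878 to 97478124, had the lowest Stat5a level of the 20, 20.01 RPM, beside 98.5 in Stat5b and 1.73 in IgG.

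All 20 had fewer RPM in each of the other 5 ChIP libraries than in Stat5b after 2 rounds, which the ranking favours. Against the IgG of the stage, 19 were called higher in Stat5a after 2 rounds, 14 in Stat5b at 8 h and 20 in Stat5b at 13 h.

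**Figure D3:**
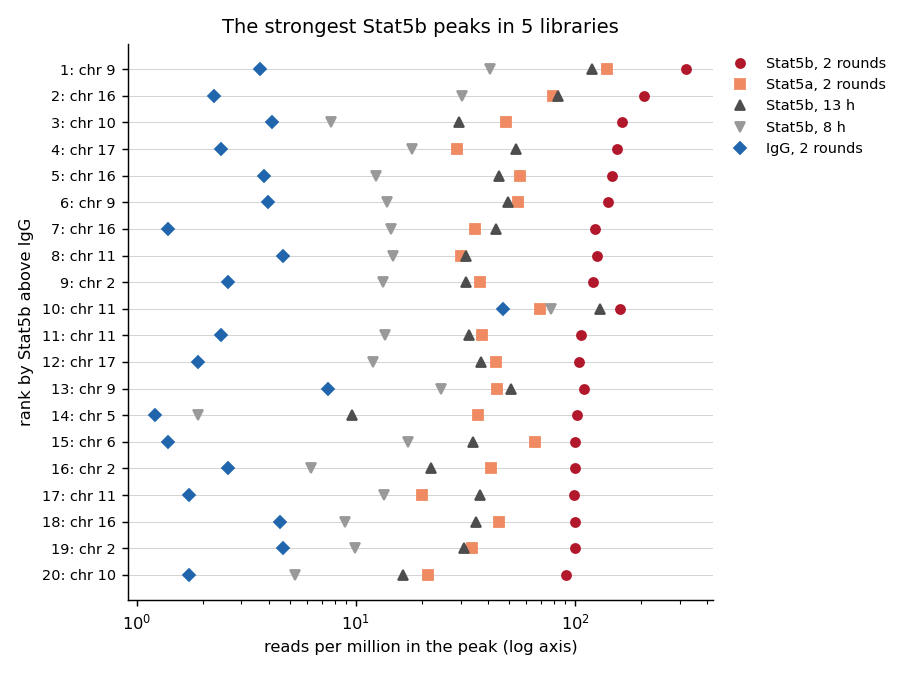
RPM (log axis) in the 20 strongest Stat5b 2-round peaks, ranked by Stat5b above IgG and named by chromosome, in 5 libraries. Stat5b after 2 rounds lies between 90.5 and 322 RPM in every row, and IgG between 1.21 and 7.43 except at rank 10, at 46.8.

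The 5 peaks with the most IgG reads looked unlike the strongest ones. On chromosome 9 from 24292314 to 24292632, Stat5b had 104 RPM and IgG 260, a ratio of 0.40 with an interval from 0.37 to 0.44, the one peak called lower. On chromosome 11 from 108827630 to 108828240 the levels were 115 RPM in Stat5b and 95.9 in IgG, and on chromosome 4 from 69864395 to 69864721 they were 46.1 in Stat5b and 81.9 in IgG, with 92.6% of Stat5b reads on the plus strand. The other two, at 3022072 to 3022329 of chromosome 9 and at 35839210 to 35840022 of chromosome 17, had 32.5 and 72.6 RPM in Stat5b, against 54.8 and 48.2 RPM in IgG. The ratio on distinct starts lay between 0.72 and 1.23 in these 5, and each lay in at least 4 of the other lists. The IgG libraries of 8 h and 13 h also had between 50.8 and 227 RPM in each of them.

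The 5 widest peaks ranked between 1 and 203 of the 31744. The widest, on chromosome 9 from 107190761 to 107194586, spanned 3826 bp and ranked 13, with 109 RPM in Stat5b and 7.43 in IgG. The strongest peak and the one ranked 3 were also among the 5. The other two were 80331545 to 80335265 on chromosome 10, with 43.6 RPM in Stat5b and 4.49 in IgG, and 125342639 to 125346123 on chromosome 7, with 69.3 RPM in Stat5b and 4.15 in IgG. All 5 had been joined from at least 2 deposited peaks.

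Peaks lay close together. The median gap from one peak to the next on the chromosome was 15.8 kb, beside a mean gap of 79.8 kb, and 40.7% of gaps were under 10 kb. The nearest peak was under 10 kb away for 61.5% of peaks and under 1 kb for 24.3%. The Stat5a 2-round list and the Stat5b 13 h list, which are shorter, had median gaps of 50493 and 31683 bp, so gaps are not comparable between lists of different lengths.

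Peaks with gaps under 10 kb were joined into groups, which gave 18836 groups, 12230 of them single peaks. Groups of at least 5 peaks numbered 762 and held 5177 peaks (16.3%) with 21.7% of the Stat5b RPM above IgG, and 91 groups had at least 10. Peaks of the 762 groups had a median of 4.70 RPM in Stat5b and 0.691 in IgG, and single peaks 3.79 in Stat5b and 0.518 in IgG. Stat5a after 2 rounds, which took no part in the list as far as the labels say, was higher than IgG in 23.2% of peaks in the 762 groups and in 13.8% of single peaks. Grouped peaks held somewhat more reads in both antibodies and also in IgG. They were wider as well, at a median of 627 bp against 566 bp, and a wider region counts more reads.

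The group with the most Stat5b reads lay on chromosome 9 from 107147531 to 107172961. Its 15 peaks had 620 RPM in Stat5b and 20.9 in IgG, and the strongest peak of the list made up 53.1% of the excess. In the same 15 peaks, which lie within 25.4 kb, Stat5b had 90.3 RPM at 8 h and 249 at 13 h, and Stat5a 277 after 2 rounds. Of the 15 peaks, 8 were called higher than IgG, a smaller share than the 64.2% of the whole list, and the weakest had 12 Stat5b and 2 IgG reads. The peaks ranked 1, 6 (from 107165101 to 107168374) and 25 (from 107170141 to 107171833) held most of its reads, with 322, 142 and 84.5 RPM in Stat5b, against 3.63, 3.97 and 2.59 RPM in IgG.

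Inside this group the reads formed 5 narrow summits. In bins of 100 bp, Stat5b reached 73.1 RPM at 7.15 kb from the start of the group, 18.4 at 6.35 kb, 15.3 at 18.55 kb, 20.1 at 19.35 kb and 25.2 at 23.65 kb, while IgG did not exceed 1.04 RPM in any bin. The strongest peak thus held a pair of summits, as did the peak ranked 6. In the bin of the highest summit, Stat5a after 2 rounds had 28.9 RPM, and Stat5b had 5.82 at 8 h and 19.7 at 13 h. The summits lay within 1 bin of each other in all 4 ChIP libraries drawn. The one near 19.35 kb was low in Stat5b at 8 h, with 1.31 RPM at 19.35 kb and again at 19.55 kb.

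**Figure D4:**
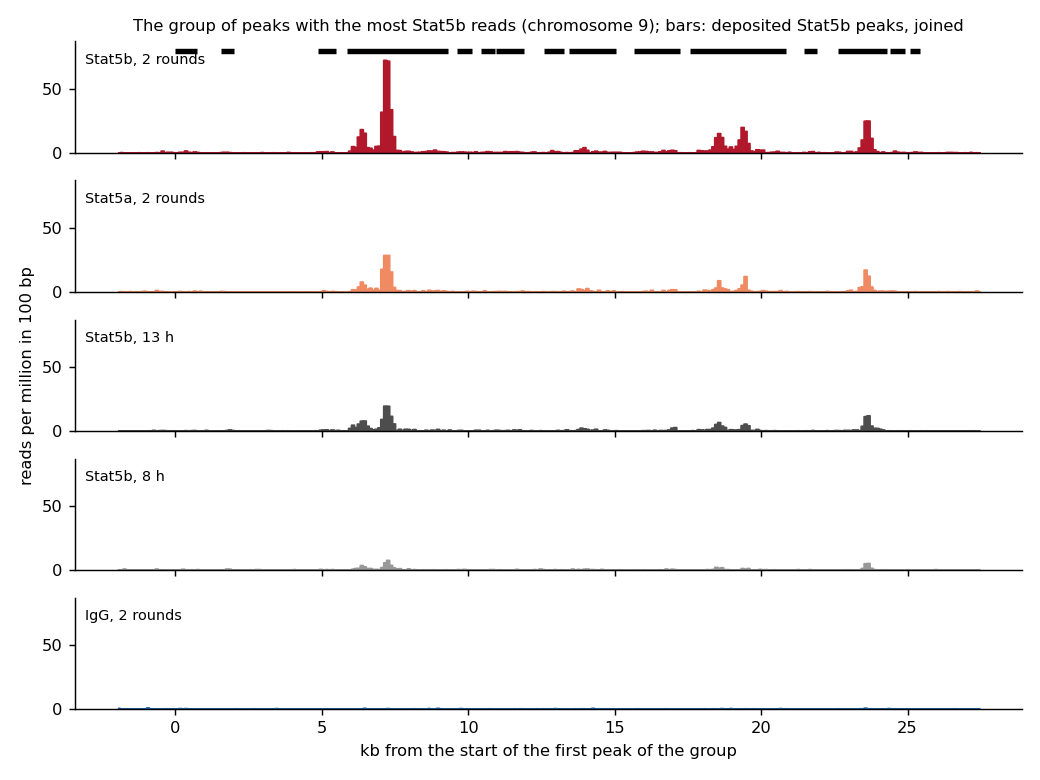
RPM in bins of 100 bp along the group of 15 peaks on chromosome 9, by distance from the start of its first peak, in 5 libraries on 1 scale, with black bars for the joined peaks. Stat5b after 2 rounds reaches 73.1 RPM at 7.15 kb, Stat5a after 2 rounds 28.9 RPM, and IgG stays at or below 1.04 RPM.

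The second group was built otherwise. On chromosome 2 from 11533859 to 11582935, 20 peaks held 355 RPM in Stat5b and 27.3 in IgG, and the strongest made up only 16.0% of the excess. The peak of this group with the most Stat5b reads, from 11558937 to 11561042, had 422 Stat5b reads against 16 IgG reads, and the peak from 11547310 to 11548153 had 181 Stat5b reads and no IgG read. Of the 20 peaks, 16 were called higher than IgG, beside 64.2% of the whole list. In the Stat5a 2-round list lay 14 of them and in the Stat5b 8 h list 12, where the whole list had 24.8% and 6.95%. Stat5b summed to 83.2 RPM at 8 h and 196 at 13 h there.

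The next 3 groups, by Stat5b above IgG, lay on chromosome 16 from 10657766 to 10702654, chromosome 17 from 34772545 to 34850430 and chromosome 11 from 53432928 to 53507165. They had 19, 23 and 20 peaks and 331, 324 and 286 RPM in Stat5b, against 23.3, 22.1 and 18.5 RPM in IgG. The groups on chromosomes 2, 17 and 11 were also the 3 with the most peaks. The group on chromosome 11 had the lowest levels of the 5 at the earlier stages, 15.1 RPM at 8 h and 57.9 at 13 h in Stat5b, and none of its peaks lay in the Stat5b 8 h list. After 2 rounds 18 of its 20 peaks were called higher than IgG, again beside 64.2%, and Stat5a had 138 RPM there at that stage.

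Peaks were unevenly spread over the chromosomes. Chromosome X had 538 peaks, 3.31 per Mb, against 13.0 per Mb over the 19 autosomes, which ranged from 8.78 on chromosome 14 to 21.5 on chromosome 11. X lay below every autosome also when peaks were set against IgG reads, with 18.8 per 10000 IgG reads on X and 41.7 to 85.5 on the autosomes. Per Mb, X had 0.576 of the autosomal Stat5b reads, 0.771 of the autosomal IgG reads and 0.692 of the autosomal protein-coding genes. The other 5 lists had between 0.231 and 0.307 times as many peaks per Mb on X as on autosomes, and the Stat5b 2-round list 0.255 times. The scarcity on X was thus larger than the lower density of IgG reads or of genes there, and what part these have in it was not tested.

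Peaks on X also held fewer reads, with a median of 2.87 RPM in Stat5b against 3.79 to 4.31 on the autosomes. They were narrower too, at a median of 499 bp against 562 to 601 bp, and a narrower region counts fewer reads. On X 59.9% were called higher than IgG, beside 62.1% to 67.3% on autosomes. Over 20 chromosomes, peaks per Mb followed coding genes per Mb, with a Spearman's rho of 0.820 and a Pearson's r of 0.726, and 0.802 for rho over the 19 autosomes. Peaks per Mb also followed IgG RPM per Mb over the 20 chromosomes, with a rho of 0.728. The points are chromosomes of the same libraries, and the gene numbers are those of RefSeq for GRCm38.p6, a different build.

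**Figure D5:**
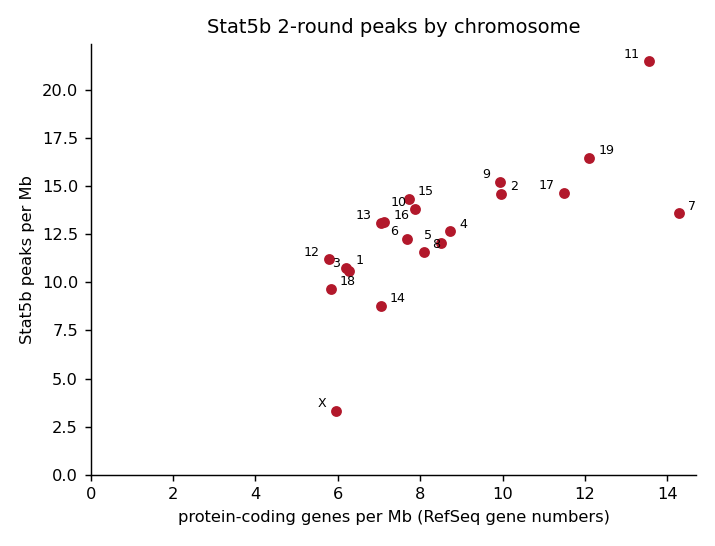
Stat5b 2-round peaks per Mb against protein-coding genes per Mb, with 1 point per chromosome. Chromosome 11 is highest at 21.5 peaks per Mb and chromosome X lowest at 3.31, below the lowest autosome, chromosome 14, at 8.78.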

How the data were processed

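The 9 libraries hold DNA recovered by chromatin immunoprecipitation from CD4+ T cells. The authors' deposited read files give the start and end of each mapped read in bp of mm8, with a mismatch class and strand and with no other unit or score, and their deposited peak files give 2 positions a peak, its first and last base. How reads were aligned, how peaks were called and whether IgG served in calling is not given in the sources used here. Of the IgG 2-round reads 77.3% are 24 bp long and the rest 25 bp. The 5′ ends of 24 bp reads, which Stat5a after 2 rounds also has, were moved by 1 bp, since after this move 0.601% of 25 bp plus strand starts recurred among 24 bp starts, against 0.353% to 0.455% at other offsets.

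The 5′ ends were counted in joined peaks and scaled to RPM by all mapped reads. Ratios carry exact conditional (Clopper-Pearson) 95% intervals, and a peak counts as higher where the interval lies wholly above 2. Shares of reads carry Wilson intervals where printed. The strand offset is the most frequent distance, smoothed over 15 bp and searched from 40 to 350 bp, between plus and minus strand starts, and the second IgG maximum was searched from 60 bp on. Named regions are the 20 peaks with the most Stat5b RPM above IgG, the 5 with the most IgG, the 5 widest, the 5 groups with the most Stat5b above IgG and the 3 groups with the most peaks. Peaks with a single heaped start, with no IgG read or in 1 list alone, and summits in the strongest group, were picked after their values were seen. The members and rules were chosen with earlier results of these data known. The scripts were tested on simulated data. Gene positions were not used, because the gene table at hand is in GRCm38.p6. Computations ran in Python 3.11.15 with scipy 1.17.1, numpy 2.4.6 and pandas 2.3.3, and plots were made with matplotlib 3.10.9.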

Additional observations from a re-analysis of the deposited data

Results flagged for a closer look

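Outside the listed peaks, 93 windows of 500 bp were called higher in Stat5b than in IgG on distinct starts, in a part of the data that the peak list does not cover. They make up 0.00264% of the windows with a read, against 31 windows (0.000881%) that were lower. Of the 93, 33 lay under 1 kb from a peak and 60 farther away. Of these 60, 2 lay in the Stat5a 2-round list and 5 in the Stat5b 13 h list. None of the 93 had over 25 distinct Stat5b starts. How many windows counting error alone would call, over so many windows, was not tested. The strongest of the 60 lay on chromosome 9 from 96615001 to 96615500, with 18 distinct starts and 29 reads in Stat5b and 0 in IgG, where the exact interval of the ratio on distinct starts began at 3.64.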

How the results depend on the processing

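Of 38 alternatives over 8 results, 16 stayed within the tolerance and 22 did not, and none reversed a direction. The tolerance was 1.5 times for counts and, other than for the offset, the 95% interval of the reported value for the rest. The ratio of shares of reads in peaks, 8.14, was 7.80 on distinct starts, 6.56 with 25 bp reads alone, 9.11 with IgG pooled over the 3 stages, 8.00 with reads moved 75 bp downstream, 9.78 when scaled by reads outside the peaks and 7.96 with reads without mismatch. The 20365 peaks higher than IgG became 5298 with 25 bp reads alone, where IgG keeps 22.7% of its reads, and 6907 with an interval wholly above 4. Other settings kept the count within 1.5 times, among them 28692 with pooled IgG, 23917 when scaled by reads outside the peaks, 30236 with an interval above 1, 14134 on distinct starts and 13779 with reads without mismatch. For Stat5a after 2 rounds, 5496 became 2750 on distinct starts, 1555 with 25 bp reads alone and 9775 with pooled IgG. The median width of 578 bp was 562 bp for peaks not joined and 762 bp in the upper 50% by reads. The share of peaks under 10 kb from the next, 61.5%, was 59.9% from centre to centre, 45.7% in the upper 50% and 65.6% for peaks not joined. The 762 groups became 352 with gaps under 5 kb, 1389 under 20 kb and 221 in the upper 50%. The strongest 1% held 8.15% on distinct starts, 10.2% with 25 bp reads and 9.81% with pooled IgG, against 9.94%. The offset of 116 bp stayed between 116 and 119 bp in the 4 alternatives tried. Where no construction is named, the cause was not tested. Reads without mismatch, peaks without heaped starts (for the shares and the call) and the offset in peaks of no other list were alternatives chosen after seeing the data. No paired analysis was possible because each group has 1 library and the labels give no replicate numbers. The depth limits the call to peaks with at least 12 Stat5b reads.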

Other observations

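In both libraries the share of reads in the peaks went down with mismatches to the genome. In Stat5b 20.3% of reads without mismatch, 18.1% with 1 and 13.0% with 2 lay in the peaks, and in IgG 2.55%, 2.27% and 1.65%. In IgG the 24 bp reads had 2.14% in the peaks and the 25 bp reads 2.85%.

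A single start on the minus strand of chromosome 16, at 60832754, held 62191 IgG reads after 2 rounds, 1.07% of that library, and all but 1 of them were 25 bp long. Stat5b had 33 reads there after 2 rounds. At 8 h the same start held 140061 reads in Stat5b and 78604 in IgG, and at 13 h 16 in Stat5b and 3 in IgG. It lies in no Stat5b 2-round peak, so it enters the IgG total and no count in a peak.

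Outside the peaks, windows with a read averaged 0.452 RPM per kb in Stat5b and 0.549 in IgG, a ratio of 0.823. A ratio under 1 follows from scaling by all mapped reads, since 18.7% of Stat5b and 2.30% of IgG reads lay in the peaks. In the flanks of the peaks, Stat5b had 0.553 RPM per kb and IgG 0.509.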
